A study of Mus musculus with 5 samples.

Results

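Trbv14+ CD8 T cells were examined in tumor-derived T cells of mice treated with doxorubicin (DOX). A cell was a member when its barcode held at least 1 UMI (unique molecular identifier, a count of 1 captured RNA molecule) of Cd3d, Cd3e or Cd3g, at least 1 of Cd8a or Cd8b1, none of Cd4 and at least 1 of Trbv14. Barcodes with fewer than 500 genes or with more than 10% of UMIs from mitochondrial genes were left out first. There were 295 members among 3144 CD8 T cells, which themselves came from 6810 kept barcodes of the T cell libraries and 11119 barcodes of all 5 libraries. The sensitive library held 207 members and the resistant library held 88. Within each library they were compared with CD8 T cells that carried UMIs of another Trbv gene and none of Trbv14, of which there were 922 (sensitive) and 1347 (resistant).

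The tumors were grown from 4T1 cells, a mouse mammary cancer line that models triple negative breast cancer, in the mammary fat pad of female BALB/c mice, labelled 12 weeks old. Both groups used here received 3 intravenous doses of DOX at 5 mg/kg, given 3 days apart, and the tumors were then named sensitive or resistant by their growth. T cells were enriched by magnetic depletion of cancer cells and of other immune cells, and were sequenced as single cells. The labels name a Chromium 3′ kit. V segments lie far from the 3′ end of a transcript, yet 79.9% and 82.9% of sensitive and resistant CD8 T cells had a Trbv UMI. The chemistry could not be settled from gene counts, and the share of cells in which a segment is missed is unknown. Per the study's methods, each of the T cell libraries combined cells of 3 tumors, so the mice within a pool cannot be told apart. With 1 library for sensitive and 1 for resistant tumors, no test between them was possible, and a difference between mice, pools or library preparations cannot be told apart from a difference between sensitive and resistant tumors.

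Each αβ T cell builds its receptor from a beta chain, which joins a Trbv segment to D and J segments and to Trbc1 or Trbc2, and an alpha chain, which joins a Trav and a Traj segment to Trac. Daughters of a T cell keep the same pair of chains, so a clone that has divided in a tumor appears as many cells with the same segments. CD8 T cells are known for killing tumor cells that present a recognised peptide, through perforin and granzymes, and for passing into a state with inhibitory receptors such as PD-1, LAG-3 and TIM-3 when stimulation persists.

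The germline segments on which the results turn are shown here to identify what the UMIs count. They come from the GENCODE M21 transcripts of GRCm38, which is the C57BL/6 reference and not the BALB/c sequence. Trbv14 lies on the plus strand at chr6:41135145-41135616, and its exon 2, at chr6:41135320-41135616, encodes most of the variable domain. Trav4-3 and Traj27 were the alpha chain segments seen most often with Trbv14 in the sensitive library, and exon 2 of Trav4-3 (chr14:53599132-53599410, plus strand) and the whole of Traj27 (chr14:54192303-54192361, plus strand) are given. Capitals mark the part of a V segment from the conserved cysteine codon, where the CDR3 loop starts, to the end of the germline segment. The CDR3 sequences of the cells are not in gene counts.
Trbv14: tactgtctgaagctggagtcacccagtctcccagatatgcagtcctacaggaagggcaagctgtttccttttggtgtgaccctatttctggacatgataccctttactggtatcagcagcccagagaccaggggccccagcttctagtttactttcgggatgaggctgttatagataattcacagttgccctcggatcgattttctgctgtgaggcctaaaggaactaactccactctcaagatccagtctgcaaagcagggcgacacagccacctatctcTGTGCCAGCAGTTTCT
Trav4-3: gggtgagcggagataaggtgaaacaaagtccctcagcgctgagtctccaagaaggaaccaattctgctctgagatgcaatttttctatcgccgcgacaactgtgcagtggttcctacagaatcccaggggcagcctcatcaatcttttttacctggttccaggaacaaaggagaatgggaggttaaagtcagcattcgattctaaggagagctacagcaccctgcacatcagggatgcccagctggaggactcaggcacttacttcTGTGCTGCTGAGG
Traj27: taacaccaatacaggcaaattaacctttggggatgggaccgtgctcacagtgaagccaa
Aligned base by base, Trbv14 was not close to any other full-length Trbv segment. The nearest were Trbv11, with 63.1% identical bases, and Trbv16, with 62.3%, while Trbv13-2 shared 50.7% and Trbv12-2 shared 52.9%. Alpha segments were less distinct. Trav4-3 and Trav4-4-dv10 shared 249 of 279 bases (89.2%), and Trav5-4, Trav3-3 and Trav7-5 each had a duplicate (Trav5d-4, Trav3d-3 and Trav7d-5) with 97.9%, 98.6% and 95.1% identical bases. UMIs may be split or lost between such copies, so the counts of these alpha segments are uncertain.

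The rule itself used the Cd3 and Cd8 genes, so their presence (Cd3e in 99.0% and Cd8b1 in 99.0% of sensitive members) does not test what the cells are. B cell and red blood cell markers were at or near 0 in both libraries. The median depth was 3949 UMIs per member and 4379.5 per other-Trbv cell in the sensitive library, and 5865 against 4970 in the resistant library. The median mitochondrial share was 2.46% and 5.18% of UMIs in sensitive and resistant members, close to the 2.39% and 5.34% of the other-Trbv cells. Some barcodes also held RNA of other cells. More than 3 UMIs from 30 markers of fibroblasts, macrophages, neutrophils, B cells, dendritic, cancer, endothelial and red blood cells were seen in 20 sensitive members (9.66%), which held 19.8% of the members' UMIs, and in 13 resistant members (14.8%), which held 30.9%. Among other-Trbv cells these were 7.48% and 11.2% of barcodes. The 7 macrophage markers summed to 1496 CPM (counts per 1000000 UMIs of a class) in sensitive members and 357 CPM in other-Trbv cells, and to 1651 against 305 in the resistant library. Without such barcodes the macrophage sums were 31.6 against 18.9 and 45.7 against 36.3 CPM. Over all cells the 5 fibroblast markers summed to 431 against 3010 and to 2653 against 3098 CPM, and the 4 neutrophil markers to 10.1 against 166 and to 1556 against 418 CPM. Gene levels are therefore given over all members and, where the value moved, over the remaining 187 sensitive and 75 resistant members, called marker-free below. No doublets were removed at first. A doublet caller, Scrublet, marked 10 sensitive and 5 resistant members. Among all barcodes, 31 sequences occurred in both T cell libraries, and none of them was a member.

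Trbv14+ cells took a larger share of CD8 T cells in the sensitive than in the resistant library. Of CD8 T cells with a UMI of any Trbv gene, 207 of 1129 carried Trbv14 in the sensitive library, 18.3% (16.1 to 20.7), and 88 of 1435 in the resistant library, 6.13% (4.95 to 7.501). Ranges in parentheses after a value are 95% intervals, exact (Clopper-Pearson) for shares, and they cover counting error only. The ratio of the shares was 2.99 (2.36 to 3.79, log-scale delta method). Because Trbv14 chose both the cells and the question, these shares are a description. Trbv14 was the second most frequent Trbv gene in the sensitive library and 10th in the resistant library. Trbv13-2 was the most frequent in both, at 28.7% and 25.2%. Trbv19, at 11.2% and 17.5%, and Trbv13-1, at 8.86% and 12.5%, had the opposite order between libraries. The share with Trbv14 was larger in the sensitive library under each of 9 other ways of counting the cells.

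**Figure D1:**
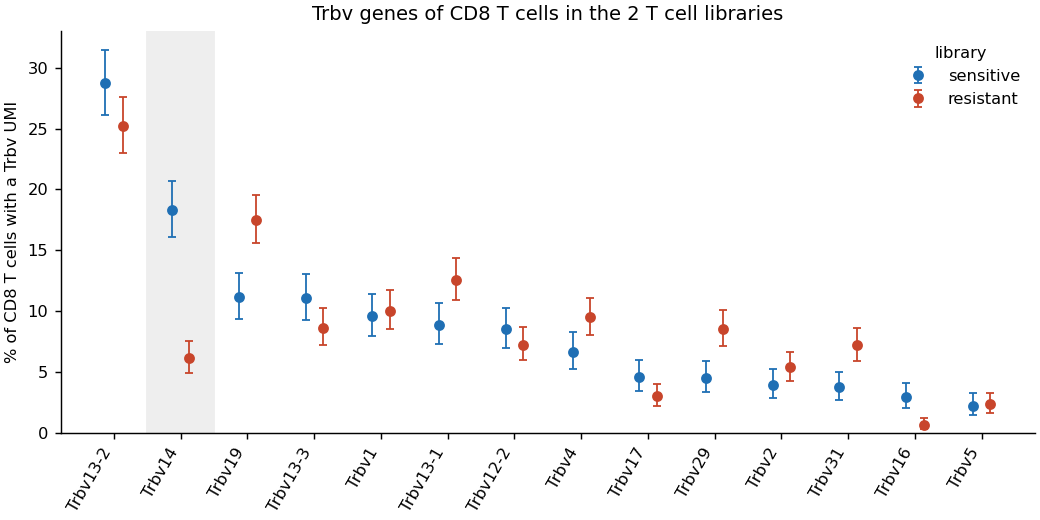
Percent of CD8 T cells with a Trbv UMI that carried each of the 14 most frequent Trbv genes (y axis) in the sensitive (blue) and resistant (red) T cell library, with 95% exact intervals as bars. Trbv14 (grey band) was at 18.3% (sensitive) and 6.13% (resistant), and a cell with several Trbv genes counts in each.

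Detection of Trbv14 was seldom marginal. A sensitive member held 1 to 25 Trbv14 UMIs with a median of 7, and a resistant member held 1 to 24 with a median of 5. At the threshold of the rule, 15 sensitive and 12 resistant members had exactly 1 Trbv14 UMI, and just outside it 1206 and 1643 CD8 T cells had none, 284 and 296 of which had no UMI of any Trbv gene. Trbv14 UMIs were rare in cells that should lack the gene. Fibroblasts of the same libraries had a Trbv14 UMI in 0 of 786 barcodes (sensitive) and in 1 of 567 (resistant, 0.176%). For the 0 the exact upper bound is 0.468% (0.382% when read as 3 counts). Median depths of these fibroblasts were 13249 and 13811 UMIs, above those of the members. CD4+ T cells of the sensitive library carried Trbv14 in 7 of the 177 with a Trbv gene (3.95%, 1.60 to 7.98), and those of the resistant library in 1 of 46 (2.17%, 0.0550 to 11.5). The interval of the sensitive CD4+ share lay below that of the sensitive CD8 share.

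Many members carried UMIs of a further Trbv gene. This was so in 103 of 207 sensitive members (49.8%) and 49 of 88 resistant members (55.7%), against 21.0% and 22.05% of other-Trbv cells with more than 1 Trbv gene. The gene was most often Trbv13-2, found in 69 sensitive (33.3%) and 33 resistant members (37.5%), or Trbv12-2, found in 31 (15.0%) and 13 (14.8%). Trbv12-2 and Trbv13-2 lie upstream of Trbv14 on chromosome 6, at chr6:41118851-41119364 and chr6:41121396-41121832. Co-detection with Trbv13-2 was not the same for every segment. Where a gene had the most Trbv UMIs of a cell, Trbv13-2 was found in 32.1% and 29.9% of Trbv14 cells, in 26.9% and 25.3% of Trbv13-3 cells, and in 0.980% and 6.30% of Trbv1 cells (sensitive and resistant). Another Trbv gene had more UMIs than Trbv14 in 7 of 207 sensitive and in 10 of 88 resistant members. Where the UMIs of the further gene came from was not tested.

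The alpha chain segments seen with Trbv14 differed between the libraries. In the sensitive library 46 of 207 members carried Traj27 (22.2%, 16.8 to 28.5), against 1 of 922 other-Trbv cells (0.108%). Trav4-3 was found in 38 members (18.4%, 13.3 to 24.3), against 0.868% of other-Trbv cells, and Trav4-4-dv10 in 14 (6.76%, 3.75 to 11.1), against 0.759%. Trav4-3 and Traj27 occurred together in 13 members and in 1 other-Trbv cell. In the resistant library neither Trav4-3 nor Traj27 was found in any of the 88 members, with upper bounds of the exact 95% interval of 4.11% for both (3.41% when a count of 0 is read as 3 counts). There Trav5-4 was carried by 21 members (23.9%, 15.4 to 34.1) against 1.34% of other-Trbv cells, and Trav7-5 by 16 (18.2%, 10.8 to 27.8) against 1.04%. Trav3-3 was carried by 21 members as well, but it was also frequent in other-Trbv cells, at 12.4%, and was found in 0 of 207 sensitive members. Trav1 (10.2% against 2.97%), Traj12 (5.68% against 0.445%) and Traj49 (5.68% against 1.04%) were the other alpha segments in at least 5% of resistant members that were above the other-Trbv share. Trav4-4-dv10 was in 4.55% against 2.52%. Trav16d-dv11, the segment found in 13.8% and 13.5% of other-Trbv cells, was in 2.42% of sensitive and 7.95% of resistant members.

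**Figure D2:**
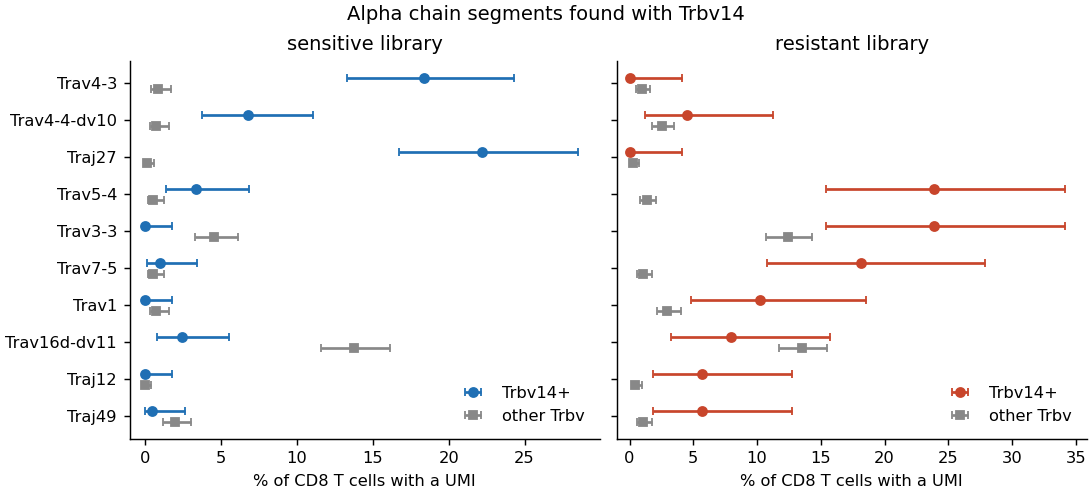
Percent of Trbv14+ (colored circles) and other-Trbv (grey squares) CD8 T cells with a UMI of each alpha chain segment (x axis), with 95% exact intervals, in the sensitive (left) and resistant (right) library. Trav4-3 and Traj27 stand out in sensitive members (18.4% and 22.2%) and were at 0 in resistant members, where Trav5-4 and Trav7-5 stand out (23.9% and 18.2%).

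Trav segments were detected in fewer of the sensitive members, but Traj segments were not. Any Trav gene was seen in 40.6% (33.8 to 47.6) of them against 74.2% of other-Trbv cells, while the resistant shares were 77.3% and 74.2%. Any Traj gene was seen in 27.5% (21.6 to 34.2) of sensitive members against 22.7%, and in 20.5% (12.6 to 30.4) of resistant members against 14.3%. The median depths of these classes differed by less than 1.5-fold. Segments of the beta chain constant region were also unequal. Where a cell had more UMIs of Trbc1 or of Trbc2, Trbc2 was ahead in 80.8% (73.7 to 86.6) of sensitive members against 69.2% of other-Trbv cells, and in 92.4% (84.2 to 97.2) of resistant members against 63.7%. Trbc1 and Trbc2 are near-identical copies, so their reads can be exchanged.

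Gene levels were compared as UMIs summed over the cells of a class, in CPM, with a ratio of at least 1.5 or at most its inverse called past the fold. There were 5872 genes with enough UMIs. In the sensitive library 5.43% of them were past the fold upwards in members over other-Trbv cells and 10.5% downwards, and in the resistant library 3.32% and 10.4%. The counts of list genes below are to be read beside these shares. In both libraries 35 genes (0.596%) were past the fold upwards and 144 (2.45%) downwards. The highest-ranked of the former were macrophage genes. C1qa, a chain of the complement protein C1q, was at 202 CPM in sensitive members and 41.7 in other-Trbv cells, and at 232 against 36.5 CPM in the resistant library. C1qb, C1qc, Apoe, Lyz2, Lgmn, Cxcl2, Fcgr2b, Plaur and Wfdc17 made up the first 10, with ratios between 1.94 and 10.2, and 96.7% to 100% of their UMIs in members came from barcodes with more than 3 UMIs of other-type markers. C1qa, C1qb, C1qc, Apoe and Lyz2 are themselves among those markers, so for them this is in part set by how the barcodes were chosen. A few barcodes carried much of the other extremes too. In sensitive members 1 barcode held 424 of 425 UMIs of the smooth muscle actin Acta2, 1 held 336 of 340 of Tagln, 1 held 1831 of 1847 of the chemokine Ccl8 and 1 held 684 of 689 of the granzyme Gzmc. In the marker-free cells 4454 genes had enough UMIs, and 11 (0.247%) were past the fold upwards and 98 (2.2%) downwards in both libraries. Of the 35 and 144 genes, 4 and 46 were also called there.

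Ccl5 led the genes that were higher in both libraries once marker-free cells were taken. Ccl5, a chemokine that draws in other T cells and monocytes (chr11:83525778-83530518), was at 10256 CPM in sensitive members and 5994 in other-Trbv cells, a ratio of 1.71 (1.67 to 1.75). In the resistant library it was at 3750.2 against 2407 CPM, a ratio of 1.56 (1.49 to 1.63). In marker-free cells the ratios were 1.81 and 1.69. As means of per-cell CPM they were 1.43 and 1.35, or 1.47 and 1.41 in marker-free cells, which is above 1 but within the fold. Over 12 alternatives the Ccl5 ratio lay between 1.29 and 1.81 in the sensitive and between 1.34 and 1.69 in the resistant library, and was past the fold in 7 of 12 for each. Ccl5 was found in 161 of 207 sensitive and in 70 of 88 resistant members. Differences in the same direction in marker-free cells were seen for Pglyrp1, a peptidoglycan recognition protein (1.67 sensitive, 1.44 resistant), the kinase gene Stk39 (1.58, 1.59), the protease inhibitor gene Serpina3g (1.54, 1.37), Gem, a small GTPase (1.60, 1.38), Upf1, a factor of RNA decay (1.59, 1.81), and Bcl2, a survival factor (1.21, 1.37). S100a6, Tpt1 and Gm42418 completed the first 10 with ratios from 1.07 to 1.24.

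Genes of dividing cells were among those lower in both libraries. Of the 12 genes of the cell cycle list, 11 were past the fold downwards in sensitive and 7 in resistant members, and 7 in both, with medians of 0.300 and 0.566 against 0.985 and 0.947 over all genes. In marker-free cells 10 of the 11 with enough UMIs were past the fold in both. Mki67, which marks cycling cells, was at 34.5 CPM in sensitive members against 95.3 in other-Trbv cells and at 44.3 against 107 CPM in the resistant library. Birc5, a mitotic survival factor, was at 23.3 against 85.0 and at 33.2 against 121 CPM, with ratios of 0.274 (0.172 to 0.417) and 0.275 (0.170 to 0.423). Pcna, the sliding clamp of replication, was within the fold in both libraries, with ratios of 0.736 and 1.06. Mki67 UMIs came from 10 sensitive and 13 resistant members, and 20 of the 34 in the sensitive library came from 1 cell. The mast cell protease genes Mcpt1 and Mcpt2 ranked lowest, at 1.01 against 66.7 CPM for Mcpt1 in the sensitive and 3.16 against 406 CPM in the resistant library. Their level in other-Trbv cells was uneven. Among resistant cells with a single Trbv gene, those with Trbv13-1 had 2042 CPM of Mcpt1 and those with Trbv31 had 1730.2 CPM, while the median over the Trbv genes other than Trbv14 was 3.89.

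Checkpoint and exhaustion genes were higher in Trbv14+ cells of the sensitive library. Of 11 list genes with enough UMIs, 8 were past the fold upwards and 1 downwards there, and 1 upwards and 1 downwards in the resistant library, with medians of 1.86 and 1.02. In marker-free cells, where 4.71% of all genes were past the fold upwards and 7.16% downwards in the sensitive library, 8 and 0 of the 11 were. Lag3, which encodes an inhibitory receptor for MHC class II (chr6:124904361-124911705), was at 801 CPM in sensitive members and 316 in other-Trbv cells (2.53, 2.32 to 2.76), and at 291 against 261 CPM in the resistant library (1.11, 0.954 to 1.30). Havcr2, which encodes the inhibitory receptor TIM-3 (chr11:46454935-46481255), was at 167 against 56.8 CPM (2.94, 2.42 to 3.57) in the sensitive and at 25.3 against 60.6 CPM (0.417, 0.237 to 0.684) in the resistant library. The pair of libraries thus had Havcr2 past the fold in opposite directions, as had 118 genes in all (2.01%). The inhibitory receptor genes Tigit (1.86) and Ctla4 (1.58), the ectonucleotidase gene Entpd1 (2.06), and the transcription factor genes Tox (2.06) and Nr4a2 (1.86) were past the fold in the sensitive library, and their ratios lay between 0.738 and 1.10 in the resistant library. Pdcd1, the gene of PD-1, was at 502 against 368 CPM in the sensitive (1.36, 1.23 to 1.51) and at 319 against 380.2 CPM in the resistant library (0.840, 0.725 to 0.968), within the fold in both. Cd160, a receptor for HVEM, went the other way, at 47.6 against 71.5 CPM in sensitive and 108 against 60.4 CPM in resistant members.

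Cytotoxic genes did not share a direction. Of 14 with enough UMIs, 3 were past the fold upwards and 2 downwards in the sensitive library, and 1 and 6 in the resistant library. Of all genes 5.43% and 10.5% were in the sensitive library, and 3.32% and 10.4% in the resistant library. In marker-free cells these were 3 and 3, and 0 and 4. Gzmc was past the fold upwards in the sensitive library over all members (698 against 18.9 CPM) through the single barcode above, and was at 6.32 against 14.4 CPM in marker-free cells. Prf1, the gene of perforin (chr10:61297833-61304680), was at 516 CPM in sensitive members against 204 in other-Trbv cells (2.53, 2.27 to 2.81), and at 128 against 143 CPM in the resistant library (0.893, 0.704 to 1.12). Prf1 was found in 126 of 207 and in 30 of 88 members. Nkg7, which takes part in granule release, was at 5047 against 3349 CPM (1.51) and at 2666 against 2767 CPM (0.963). Gzmb, which encodes granzyme B, was within the fold in both libraries over all cells (1.03 and 1.15), and so was Gzmk (1.07 and 0.8003). The resistant Gzmb ratio ran from 0.9397 to 2.34 over 12 alternatives and was past the fold upwards in 3 of them, at 2.34 with exactly 1 Trbv gene. Gzma was at 683 against 867 CPM in the sensitive and at 2131 against 1277 CPM in the resistant library (1.67, 1.58 to 1.77), but its UMIs came from 12 and 17 members, with 422 of the 1348 in resistant members from 1 cell and 39.99% of them in barcodes with other-type markers. As a mean over cells the resistant Gzma ratio was 0.985. Gzmd and Gzme, of the granzyme cluster on chromosome 14, were lower in both libraries, Gzmd at 6.08 against 36.5 CPM and at 20.6 against 94.3 CPM, each from 2 members. The Gzmd level of other-Trbv cells was uneven. Among sensitive cells with a single Trbv gene it was 288 CPM with Trbv4 and 6.43 with Trbv14, and the median over the Trbv genes other than Trbv14 was 8.72. In the resistant library these were 718 CPM with Trbv2, 0 with Trbv14 and a median of 44.9. Granzymes c to g are similar in sequence, and their reads may not be fully told apart.

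Among secreted factors, the chemokines Ccl3 and Ccl4 and the growth factors Csf1 and Areg were higher in sensitive members. Ccl3, which attracts macrophages and T cells, was at 882 against 459 CPM (1.92, 1.78 to 2.08) in the sensitive and at 133 against 164 CPM (0.807, 0.640 to 1.01) in the resistant library. Over 12 alternatives the sensitive Ccl3 ratio lay between 1.06 and 2.11, and was past the fold in 8. Its lowest value was the one without the members that carried Trav4-3, Trav4-4-dv10 or Traj27. Ccl4, a close relative, was at 3232 against 1865 CPM (1.73) and at 772 against 915 CPM (0.843). Of 5 chemokine genes, 3 were past the fold upwards and 2 downwards in the sensitive library, and 2 upwards in the resistant library. Csf1, the macrophage growth factor, was at 276 against 118 CPM (2.34, 2.02 to 2.70) and at 58.5 against 123 CPM (0.477, 0.334 to 0.662). Areg, which encodes the EGF receptor ligand amphiregulin (chr5:91139599-91148432), was at 125 against 23.3 CPM (5.34, 4.13 to 6.91) in the sensitive library, from 18 cells, and at 9.49 against 37.7 CPM in the resistant library, from 2 cells. Ifng, the gene of interferon gamma, was at 521 against 351 CPM (1.49) and 160 against 181 CPM (0.884), and Tnf was at 82.1 against 70.0 and at 22.1 against 43.3 CPM. Xcl1, a ligand for cross-presenting dendritic cells, was at 117 against 336 CPM in the sensitive and at 379 against 396 CPM in the resistant library. In sensitive members 70 of its 115 UMIs came from 1 barcode with other-type markers, and without such barcodes Xcl1 was at 56.9 against 388 CPM. The level in other-Trbv cells was uneven. Among sensitive cells with a single Trbv gene, with no barcodes left out for markers, those with Trbv1 had 1277 CPM of Xcl1. The median over the Trbv genes other than Trbv14 was 107 CPM, and Trbv14 cells had 212 CPM. Ccl1 was at 7.09 against 24.3 CPM and at 133 against 75.5 CPM, but 65 of the 84 UMIs in resistant members came from 1 cell.

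Genes of the Ly6 family were past the fold downwards in sensitive members, and in resistant members Ly6c2 was past it upwards, while Ly6c1 and Ly6a were within it over all cells. Ly6c2, a surface antigen of memory and effector CD8 T cells (chr15:75108158-75111970), was at 118 CPM in sensitive members against 329 in other-Trbv cells (0.358, 0.294 to 0.432), and at 193 against 122 CPM in the resistant library (1.59, 1.30 to 1.91). Ly6c1 was at 205 against 781 and at 398 against 284 CPM, and Ly6a, the gene of Sca-1, at 497 against 1808 and at 1173 against 893 CPM. The 3 genes are neighbors with similar sequences, so they are not independent readings. In marker-free cells their ratios were 0.265 to 0.315 in the sensitive and 1.46 to 1.94 in the resistant library. Without cells with a Mki67 or Top2a UMI, the resistant ratios were 0.646 for Ly6c1, 0.738 for Ly6a and 1.03 for Ly6c2, the lowest of 12 alternatives, while the sensitive ratios of the 3 genes were past the fold downwards in all 12. The effector list went both ways in sensitive members, with 3 of 9 genes past the fold upwards and 3, the Ly6 genes, downwards, and a median of 1.16. In marker-free cells these were 2 and 3 of 8. The genes upwards in both sets of cells were Id2, a transcription regulator of effector cells (2288 against 1192 CPM), and Cd44, an adhesion receptor of antigen-experienced cells (200 against 116 CPM). Both were within the fold, at 792 against 907 and at 115 against 139 CPM, in the resistant library.

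Of 6 residency genes 1 was past the fold downwards in the sensitive library and none upwards, with a median of 1.26. Of all genes 10.5% were past the fold downwards there and 5.43% upwards. In marker-free cells Ahr was just past it upwards in both libraries (1.51 and 1.63). The gene downwards was Itgae. Itgae, which encodes the integrin CD103 of tissue-resident cells, was at 14.2 CPM against 70.4 in other-Trbv cells (0.202, 0.109 to 0.343), whereas in the resistant library it was at 42.7 against 41.3 CPM (1.03, 0.671 to 1.53). The chemokine receptor genes Cxcr3 (49.7 against 108 CPM) and Ccr7 (9.12 against 38.9 CPM) were also past the fold downwards there, of 8 chemokine receptor genes of which Cx3cr1 was past it upwards (1.90). The median of the 8 was 1.30. In the resistant library none of the 8 was past the fold, and in marker-free cells 2 of the 6 with enough UMIs were past it downwards, where 11.6% of all genes were. Tcf7 and Slamf6, which mark stem-like cells, had 10 and 6 UMIs in sensitive members and 6 and 10 in resistant members, too few for the minimum. Of the 5 naive and stem-like genes with enough UMIs, 1 was past the fold upwards in the sensitive library, Cd27 (1.88), a costimulatory receptor, and Il7r was near parity in both (1.04 and 1.02). In the resistant library 1 of the 5 was past the fold downwards, and in marker-free cells none of the 4 with enough UMIs.

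Of 14 interferon-stimulated genes none was past the fold upwards, and 4 were past it downwards in sensitive and 2 in resistant members, with medians of 0.725 and 0.902. Of all genes 5.43% and 3.32% were past the fold upwards and 10.5% and 10.4% downwards. In marker-free cells 2 and 1 of 12 were past it downwards, where 7.16% and 11.6% of all genes were. Isg15 was at 233 against 367 CPM in the sensitive and at 267 against 316 CPM in the resistant library, and Bst2 at 269.6 against 429 and at 311 against 312 CPM. Of the 18 activation genes, Tnfrsf4 (1.91) and Tnfrsf18 (1.84), which encode the costimulatory receptors OX40 and GITR, were past the fold upwards in the sensitive library, and Cd5, a brake on receptor signaling, was past it downwards (0.597). Without the members that carried Trav4-3, Trav4-4-dv10 or Traj27, the Tnfrsf4 ratio was 0.937. In marker-free cells 4 of the 18 were past the fold upwards and 1 downwards in the sensitive library, and none upwards and 6 downwards in the resistant library, where 2.49% and 11.6% of all genes were. Over all cells of the sensitive library Icos and Cd69 were within the fold, at 1.33 and 0.804. In the resistant library Icos, a costimulatory receptor gene, was at 49.0 against 106 CPM, and its ratio of 0.460 (0.311 to 0.658) was past the fold downwards, as in 12 of 12 alternatives. Of the killer lectin-like receptors, Klre1 (2.13) and Klrd1 (1.61) were higher and Klra5 (0.411) was lower in sensitive members, and none of the 6 list genes was past the fold in the resistant library. Klri2, a receptor gene of the same family outside the list and named by its rank in marker-free cells, was over all cells at 43.6 against 19.1 CPM in the sensitive (2.29, 1.56 to 3.29) and at 9.49 against 33.2 CPM in the resistant library (0.286, 0.104 to 0.630). Of 9 glycolysis and hypoxia genes, 1 was past the fold upwards in the sensitive library, the glucose transporter gene Slc2a1 (1.90), and 1 downwards in the resistant library, again Slc2a1 (0.657). In the resistant library 1 of 9 is near the 10.4% of all genes past the fold downwards. Of 8 dissociation stress genes 2 were past the fold downwards in the sensitive library and none in the resistant library. None of the 8 genes of the T cell receptor complex was past the fold in either library, with medians of 1.13 and 0.887.

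**Figure D3:**
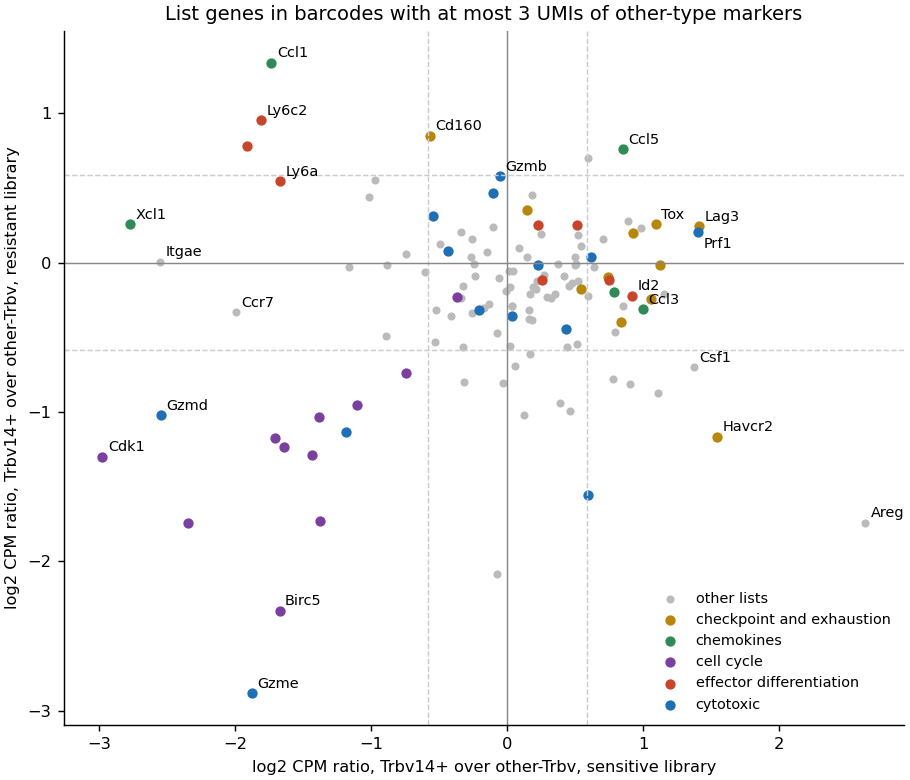
Log2 ratio of CPM in Trbv14+ over other-Trbv CD8 T cells for the list genes, in the sensitive (x axis) and resistant (y axis) library, over barcodes with at most 3 UMIs of other-type markers. Dashed lines mark the 1.5-fold limits, Ccl5 lies past them upwards in both libraries (1.81 and 1.69), and Havcr2, Areg and Csf1 lie to the lower right.

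Trbv14+ cells of the sensitive library were then compared with Trbv14+ cells of the resistant library, and most checkpoint genes were higher and most cell cycle genes lower in the former. Past the fold were 21.8% of genes upwards and 10.3% downwards (1279 and 602 genes), around a median ratio of 1.12 over all genes. After division by that median the counts were 830 and 903, so the excess of higher genes depended on the scaling. Relative to the median, the checkpoint list was at 1.87, with 8 of 11 genes past the fold upwards and 1 downwards, the chemokine list at 2.43, with 3 of 5 upwards and 2 downwards, and the cell cycle list at 0.463, with 10 of 12 past the fold downwards. In marker-free cells 4 of 11 cell cycle genes were past it downwards, the median was 0.701 relative to that of all genes, and Mki67 and Birc5 were near parity at 1.04 and 1.01. Of the chemokine receptor genes 7 of 8 were past the fold upwards and 1 downwards (4 and 1 of 6 in marker-free members), and of the cytokine and death ligand genes 6 of 8 upwards and none downwards (5 and 1 of 7). The other-Trbv cells differed between the libraries as well, with 3.7% of all genes past the fold upwards and 2.15% downwards. Among them were 3 of the 5 chemokines upwards and 1 downwards, 5 of the 8 chemokine receptors upwards, 3 of the 8 cytokines and death ligands upwards and 1 downwards, and 1 of the 11 checkpoint genes upwards. Ccl5 was 2.73-fold higher in sensitive members (2.61 to 2.86) and 2.49-fold higher in sensitive other-Trbv cells. For Prf1 these ratios were 4.03 (3.18 to 5.16) and 1.42, for Havcr2 6.61 (3.95 to 11.8) and 0.937, for Lag3 2.75 (2.34 to 3.25) and 1.21, and for Icos 7.11 (4.92 to 10.6) and 2.46. Ly6c2 was at a ratio of 0.609 (0.469 to 0.792) in members and 2.70 in other-Trbv cells.

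Among marker-free members, the genes ranked highest in sensitive over resistant cells were Gm20400, Areg, Ccl3, Icos, Gm156, Ccl4, Havcr2, Nfil3, Csf1 and Prf1. Gm156 was at 461 CPM in sensitive and 80.1 CPM in resistant members, against 84.2 and 112 CPM in other-Trbv cells, and was found in 83 of all 207 sensitive members. Nfil3, a transcription factor gene, was at 166 against 29.7 CPM in members. In these cells 23.3% of genes were past the fold upwards and 6.78% downwards between the libraries. The genes ranked lowest were Ccl1, Xcl1, Gzmc, Cd7, Tmem223, Gzmf, Plac8, Klra5, Ube2c and Filip1l. Cd7, the gene of a T and NK cell surface protein, was at 48.0 CPM in sensitive and 345 CPM in resistant members, but 91 of the 154 UMIs in resistant members came from 1 cell, as did 102 of the 133 of Gzmf. Plac8 was spread more widely, at 205 against 613 CPM, and was found in 49 sensitive and 50 resistant members.

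Each Trbv gene picks out its own set of clones, so Trbv14 was set beside cells chosen the same way by another segment. In cells with UMIs of 1 Trbv gene, 7 Trbv genes of the sensitive library and 10 of the resistant one could be compared, with 104 and 39 Trbv14 cells. In the sensitive library Trbv14 cells had the highest level of Lag3 (726 CPM against a highest value of 505 in Trbv4 cells), Havcr2 (158 against 91.9), Tigit (424 against 307), Areg (111 against 61.0), Csf1 (238 against 208) and, by little, Tox (154 against 151). They ranked next to the highest for Ccl5, Ccl3 and Prf1, behind Trbv13-2 (9615 CPM of Ccl5) or Trbv4 (1241 CPM of Ccl3 and 715 CPM of Prf1), and lowest for Ly6c2 (109 CPM), Itgae (10.7) and Ccna2 (17.1), a cyclin gene. Next to the highest they were also for the checkpoint genes Pdcd1 (441 CPM against 600 in Trbv4 cells) and Ctla4 (371 against 391 in Trbv13-2 cells). In the resistant library Trbv14 cells were highest for Ccl5 (3664 CPM against 3172 in Trbv29 cells), Ly6c2 (306 against 294), Gzmb (1561 against 1416) and Gzma (4487 against 1859), and lowest for Tox (46.2 CPM) and Csf1 (58.8 CPM). Havcr2, Lag3 and Prf1 each ranked ninth of 10 there. Among these single-Trbv cells Ccl5 was thus near the top in both libraries, and Lag3 and Havcr2 were highest in the sensitive and near the lowest in the resistant library. Over all resistant members Lag3 was instead slightly above other-Trbv cells. Its resistant ratio lay between 0.789 and 1.19 over 12 alternatives and was above 1 in 10 of them. Ccna2 was low in both, ranking eighth of 10 in the resistant library.

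**Figure D4:**
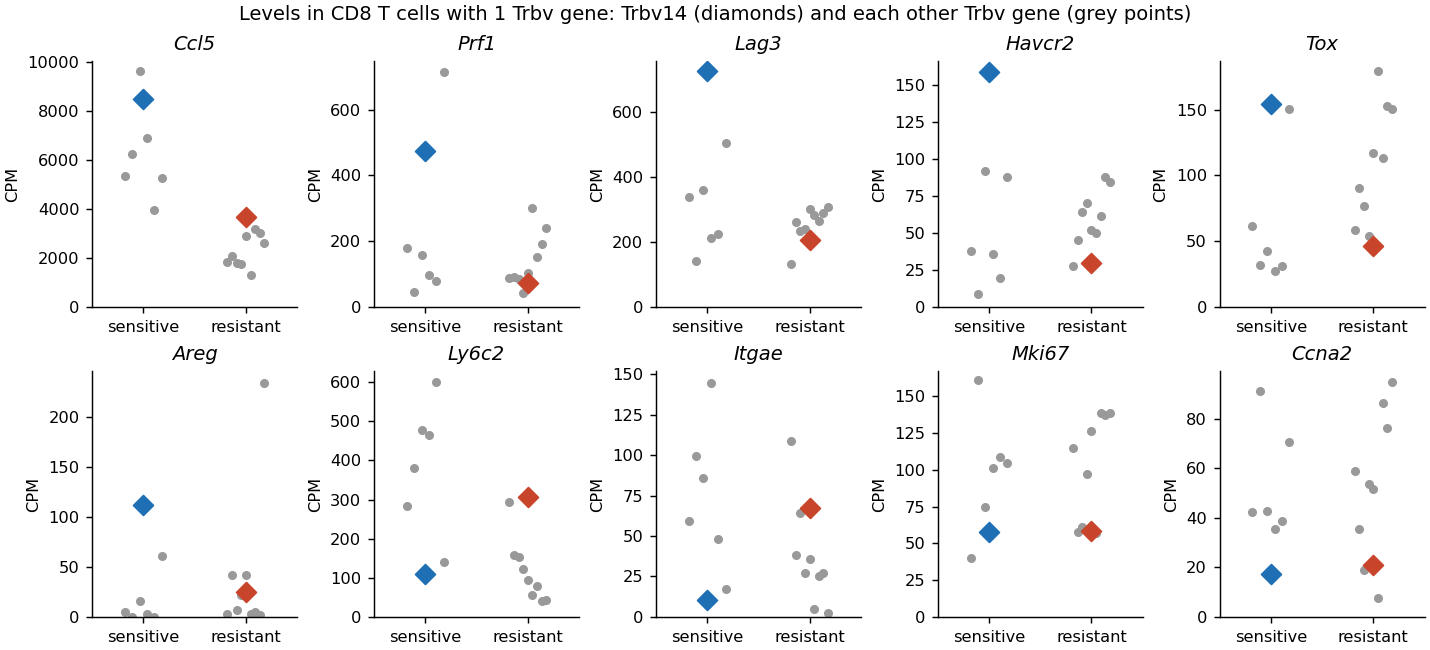
CPM of 10 genes in CD8 T cells with UMIs of a single Trbv gene, with Trbv14 cells as diamonds (blue, sensitive; red, resistant) and each other Trbv gene as a grey point. In the sensitive library the Trbv14 diamond is the highest for Lag3 (726 CPM) and Havcr2 (158 CPM) and the lowest for Ly6c2 (109 CPM).

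Detection also depends on depth, so shares of cells with a UMI were taken from 1000 UMIs drawn from each cell, and 2 members and 5 other-Trbv cells with fewer UMIs were left out. A UMI of Mki67 or Top2a was found in 3.41% (1.38 to 6.91) of sensitive members and 8.16% of other-Trbv cells, and in 3.41% (0.709 to 9.64) of resistant members and 11.3% of other-Trbv cells. Without thinning, Mki67 or Top2a was found in 15.0% against 23.9% in the sensitive library and in 28.4% against 30.4% in the resistant library, where the ratio of 0.936 (0.665 to 1.32) was near parity. Pdcd1 and Havcr2 together were found in 6.34% (3.42 to 10.6) of sensitive members against 2.50%, and in 0 of 88 resistant members against 1.78%. For the 0 the exact upper bound is 4.11% (3.41% when read as 3 counts), which holds for detection at this depth only. Without thinning these were 33.3% against 15.1% and 12.5% against 19.9%. Itgae was found in 0.488% of sensitive members against 7.29%, and in 4.55% of resistant members against 4.46%. Ly6c2 was found in 6.34% (3.42 to 10.6) of sensitive members against 24.3%, and in 12.5% (6.41 to 21.3) of resistant members against 9.37%. Ifit1 or Ifit3, which are induced by interferon, were found in 6.34% against 12.1% and in 7.95% against 7.66%. Ccl3 was found in 21.5% (16.05 to 27.7) of sensitive members against 13.6%, and in 6.82% against 8.70% in the resistant library. For Gzmk the intervals of members and other-Trbv cells overlapped in both libraries, at 23.9% against 19.7% and at 10.2% against 10.0%. Tcf7 was found in 2 sensitive members (0.976%, 0.118 to 3.48) against 4.24%, and in 2 resistant members (2.27%, 0.276 to 7.97) against 1.86%. Without thinning these were 4.35% against 12.9% and 4.55% against 6.31%. A granzyme d to g UMI was found in 3.90% of sensitive members against 0.871%, the reverse of the order of the Gzmd and Gzme CPM, and no order is read from it.

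The members of a library were not uniform. They were grouped, after the data had been seen, by the alpha segments above, as a description. Of the sensitive members, 79 carried Trav4-3, Trav4-4-dv10 or Traj27, 38 carried other alpha segments only and 90 none. Prf1 was at 729 CPM in the first of these groups (found in 59 cells), 137 CPM in the second (15 cells) and 484 CPM in the cells without an alpha segment (52 cells). Ccl3 was at 1438, 334 and 568 CPM, and Lag3 at 924, 389.6 and 881 CPM. Gzma was the reverse, at 70.9, 1422 and 957 CPM, but from 3, 5 and 4 cells. Ccl5 differed less, at 10198, 8105 and 11436 CPM. The high levels of Prf1, Ccl3 and Lag3 in sensitive members were therefore highest in the cells with the Trav4 family or Traj27 segments and lowest in those with other alpha segments. Without the 79 cells, 23 of 5583 rather than 35 of 5872 genes were past the fold upwards in both libraries. Prf1, Ccl3 and Lag3 are not among these genes, and the highest-ranked of the 35 were the macrophage genes above, so this count does not bear on them.

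The resistant members split into smaller groups. The 18 with Trav3-3 had the highest Ccl5 among the groups (6136 CPM), 343 CPM of Ly6c2 (10 cells) and 5332 CPM of Gzma (8 cells, 403 of 683 UMIs in 1 cell), with 85.9 CPM of Lag3. The 16 with Trav5-4 or Traj49 had 2970.4 CPM of Ccl5, no UMI of Gzma or Ly6c2, 663 CPM of Pdcd1 (16 cells) and 465 CPM of Ifng, 38 of whose 47 UMIs came from 1 cell. The 16 with Trav7-5, Trav1 or Traj12 had 1185 CPM of Ccl5, 411 CPM of Lag3 (15 cells) and 963 CPM of Xcl1 (7 cells, 88 of 143 UMIs in 1 cell). A further 5 carried segments of more than 1 group, 14 carried other alpha segments and 19 carried none. Groups of this size hold few cells, so the levels describe these cells and not Trbv14+ cells of resistant tumors at large.

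**Figure D5:**
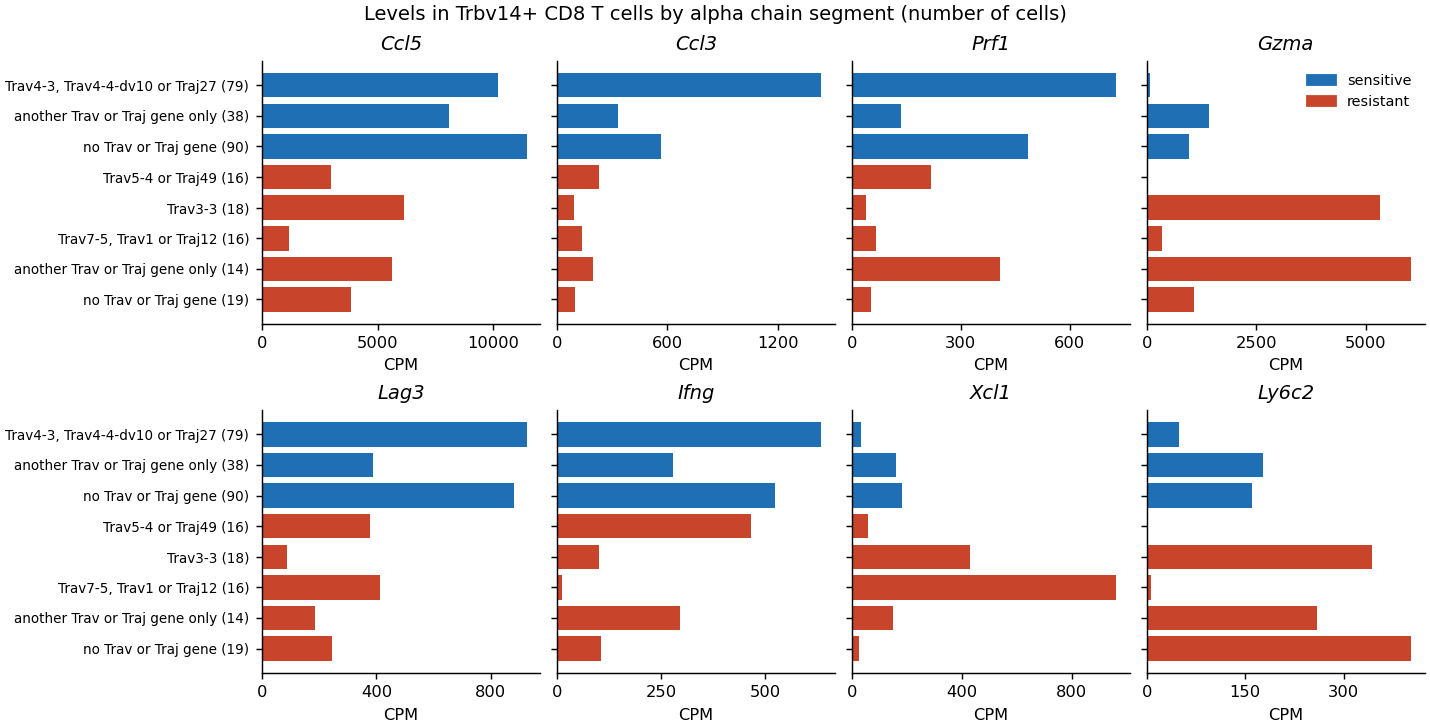
CPM (bars, from 0) of 8 genes in Trbv14+ CD8 T cells grouped by alpha chain segment, with the number of cells in parentheses, for the sensitive (blue) and resistant (red) library, leaving out 5 resistant cells with segments of more than 1 group. Ccl3 (1438 CPM) and Prf1 (729 CPM) are highest in sensitive cells with Trav4-3, Trav4-4-dv10 or Traj27, and Gzma UMIs come mostly from other cells.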

How the data were processed

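The authors demultiplexed reads and aligned them to mm10 with Cell Ranger (6.0.0 for the T cell libraries, per the file headers). They deposited counts, as UMI counts per gene and cell barcode, not normalized, with 32285 genes in each T cell library. The sensitive library held 31690845 UMIs in 3949 barcodes and the resistant library 35908799 in 6116, of which 3560 and 3250 were kept. Depth limits the precision of each value, and the intervals cover counting error only. UMIs do not show how many mice a clone came from.

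From the counts, UMIs of a class were summed as CPM (counts per 1000000 UMIs of all genes). Ratios had exact conditional binomial 95% intervals. A count of 0 was read as 3 counts. Genes were ranked with at least 10 UMIs expected in the smaller class of each library, leaving out receptor segments and mitochondrial, ribosomal and rule genes. Named genes were the 10 highest and 10 lowest in both libraries, the 10 highest and 10 lowest between libraries, the 5 whose ratio differed most each way, by the interval bound nearest 1, and members of 15 lists. Members, lists and rules were chosen with earlier results of these data known. Ranks and lists in marker-free barcodes, the alpha segment groups and 4 further alternatives were added after seeing the data. Python 3.11.15, scipy 1.17.1, pandas 2.3.3 and scanpy 1.11.5 were used, and the ratio script was tested on simulated data. Alternatives covered the Trbv14 threshold, filters, thinning, doublets, scaling and the minimum of UMIs.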

Additional observations from a re-analysis of the deposited data

Results flagged for a closer look

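For 6 list genes, the ratio of Trbv14+ over other-Trbv CD8 T cells was past 1.5-fold in opposite directions in the 2 libraries. This held both over all cells and in marker-free barcodes. Of all genes, 118 (2.01%) had opposite directions over all cells and 46 (1.03%) in marker-free barcodes. Values over all cells are given first. The ratio in the sensitive library over that in the resistant library was 6.85 (4.05 to 11.6) for Havcr2, 0.177 (0.0818 to 0.381) for Ccl1, 4.85 (3.40 to 6.91) for Csf1, 19.6 (8.69 to 44.3) for Areg, 0.225 (0.173 to 0.294) for Ly6c2 and 2.83 (1.68 to 4.76) for Slc2a1. With 1 library on each side the difference was not tested, and the intervals cover counting error only. Marker-free barcodes are an alternative added after seeing the data. There the resistant ratios of the 6 were 0.446, 2.53, 0.615, 0.299, 1.94 and 0.582 in the same order. Gzmc was at 0.440 (sensitive) and 0.456 (resistant) there, against 37.0 and 0.373 over all cells. Cd160 too had opposite directions over all cells, but no checkpoint gene was past the fold downwards in marker-free sensitive members. Genes that lost their opposite directions are thus left out of the 6, so that the 6 kept theirs is no sign of stability. Ccl1 lost its opposite direction without cells with Mki67 or Top2a, where its resistant ratio was 0.141, or 0.200 in marker-free barcodes. The resistant Slc2a1 ratio was past the fold in 5 of 10 alternatives, and the resistant Ly6c2 ratio in 8 of 12. Ccl1 rested on 5 sensitive and 7 resistant members and Areg on 18 and 2. Among resistant cells with a single Trbv gene, those with Trbv14 had 25.2 CPM of Areg, above the median of 7.23 over the other Trbv genes, while those with Trbv4 had 234 CPM.

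CD8-gated barcodes with 10 to 20% mitochondrial UMIs were left out of the comparisons, other than the alternative that allowed up to 20%. In the resistant library 42 of 657 of them carried Trbv14, which is 6.39% (4.65 to 8.54), above the 1 of 567 fibroblasts (0.176%). Of the 483 with any Trbv gene it is 8.70% (6.34 to 11.6). The share on that basis in the kept CD8 T cells of that library was 6.13% (4.95 to 7.501). In the sensitive library 1 of the 8 with a Trbv gene carried it.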

How the results depend on the processing

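Where a value moved, the cause was not tested. The Trbv14+ share was 12.5% (sensitive) and 3.58% (resistant) over cells with exactly 1 Trbv gene, 22.05% in the sensitive library after thinning, with a ratio of shares of 3.99, and 14.6% over all CD8 T cells. Traj49 was in 0% of sensitive members with at least 2 Trbv14 UMIs. Instead of 35, genes past the fold upwards in both libraries numbered 18 with at least 2 Trbv14 UMIs, 15 with exactly 1 Trbv gene, 11 in marker-free barcodes, 3 after thinning, 124 with at least 3 expected UMIs, 4 in marker-free barcodes without Mki67 or Top2a and 23 without members carrying Trav4-3, Trav4-4-dv10 or Traj27. Downwards, instead of 144, they numbered 225, 52, 7 (thinned), 427 (3 expected UMIs) and 20 (marker-free without Mki67 or Top2a), the first 2 with at least 2 Trbv14 UMIs and with 1 Trbv gene. Between libraries, upwards counts were 672 with 1 Trbv gene, 830 scaled to the median, 2350 with 3 expected UMIs 755 marker-free without Mki67 or Top2a and 239 after thinning, instead of 1279. Downwards counts were 318 with 1 Trbv gene, 302 marker-free, 291 without Mki67 or Top2a, 903 scaled to the median, 1405 with 3 expected UMIs 208 marker-free without Mki67 or Top2a and 95 after thinning, instead of 602. The numbers of genes with enough UMIs differed too, so these counts are not shares of the same genes. They were 5463 with at least 2 Trbv14 UMIs, 2863 with exactly 1 Trbv gene and 4454 marker-free. Without Mki67 or Top2a they were 4006, or 3234 marker-free. Without members carrying Trav4-3, Trav4-4-dv10 or Traj27 they were 5583. With 3 expected UMIs they were 9162, and thinning left 999 instead of 5872.

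Without thinning, shares of sensitive and resistant members with a UMI were 15.0% and 28.4% for Mki67 or Top2a, 33.3% and 12.5% for Pdcd1 with Havcr2, 4.35% and 4.55% for Tcf7, 5.31% and 17.0% for Itgae, 13.5% and 28.4% for Ly6c2, 11.1% and 21.6% for Ifit1 or Ifit3, 42.0% and 26.1% for Ccl3 and 49.3% and 30.7% for Gzmk.

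Ratios past the fold that went across 1 follow, in sensitive or resistant members over other-Trbv cells or between libraries within members. With at least 2 Trbv14 UMIs, Filip1l was 0.834 (sensitive), Apod 0.222, Clec3b 0.939, Cpxm1 0.347, Gas6 0.555, Igfbp4 0.551, Lbp 0.598, Mmp3 0.304 and Mt1 0.593 (resistant), and Gzmd 3.64, Gzmf 1.42 and Mt1 1.02 (between). With exactly 1 Trbv gene, Apoe was 0.354, C1qa 0.874, Ifit1 1.01 and Wfdc17 0.634 (sensitive), Pclaf 1.25 (resistant), and Gzmf 1.19, Lyz2 0.543 and Ube2c 2.81 (between). Without Mki67 or Top2a cells, C1qb was 0.546, C1qc 0.911, Ccl8 0.372 and Lgmn 0.703 (sensitive), Apod 0.373, Ccl1 0.141, Clec3b 0.164, Cpxm1 0.764, Gas6 0.154, Igfbp4 0.119, Lbp 0.150, Mmp3 0.642, Mt1 0.675 and Stmn1 1.18 (resistant), and Ccl8 0.130, Col5a1 3.71 and Lyz2 0.735 (between). In marker-free barcodes, Filip1l was 0.599 and Gzmc 0.440 (sensitive), Mt1 0.423 (resistant), and Gzmc 0.0767 and Mt1 2.94 (between). There without Mki67 or Top2a, Ccl1 was 0.200 and Mt1 0.600 (resistant) and Mt1 2.22 (between). As a mean of per-cell CPM, Filip1l was 0.651 (sensitive), Gzma 0.985 (resistant) and Cxcl2 0.637 (between). With up to 20% mitochondrial UMIs, Ccl8 was 0.998 (resistant). With Scrublet doublets removed, Clec3b was 0.847 (resistant) and Timp3 1.12 (between). Without members carrying Trav4-3, Trav4-4-dv10 or Traj27, Ccl8 was 0.508, Lgmn 1.00 and Tnfrsf4 0.937 (sensitive) and Ccl8 0.258 (between).

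Over 127 genes followed, 600 values were not given because too few UMIs were expected. Of the rest, 258 sensitive, 234 resistant and 235 between-library ratios moved beyond the interval of the value reported, and 997, 1011 and 930 stayed within it, besides those above. No paired analysis was possible because each group had 1 library, and no library could be left out. Depth limits genes with few UMIs, such as Tcf7.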

Other observations

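T cells of the whole tumor libraries, which the rule did not use, could not show whether Trbv14 was frequent there. Barcodes with a Cd3 UMI numbered 89 in the library labelled control, 8 in the sensitive and 19 in the resistant one. Of these, 3, 0 and 0 had a UMI of any Trbv gene and none had one of Trbv14, so these barcodes set no limit on the share of T cells that carry it. In the T cell libraries, thinned to 1000 UMIs, 52.4% and 49.2% of such barcodes had a Trbv UMI, so detection of these segments was not alike in the 2 kinds of library. For the library titled resistant, the source label names a sensitive tumor. The whole tumor libraries were made with another version of Cell Ranger (3.0.1) and listed 54987 features.

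Beta chain J segments were found with few members. Any Trbj gene was seen in 14 of 207 sensitive members (6.76%, 3.75 to 11.1) against 19.3% of other-Trbv cells, and in 21 of 88 resistant members (23.9%, 15.4 to 34.1) against 24.2%. In resistant members Trbj2-7 was found in 8 (9.09%) and Trbj2-1 in 5 (5.68%), against 3.64% and 4.53% of other-Trbv cells. Among other Trbv genes, Trbv19 was found in 2.90% of sensitive and in 14.8% of resistant members.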
